A study of Homo sapiens with 33 samples.

Results

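The genes described here are 10 genes of WNT signalling, taken by name from the 58302 genes of the expression matrix. They are the ligands WNT2, WNT2B, WNT5A, WNT5B and WNT7B, the secreted antagonists DKK1, DKK3 and SFRP1, and the target genes AXIN2 and LEF1. All 10 reached the minimum of 100 CP20M (counts per 20000000 reads) in at least 1 library and were among the 17803 genes tested. WNT2 reached it only through MPP89 and MeT-5A.

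The study examined how malignant pleural mesothelioma (MPM) cells respond to palbociclib, an inhibitor of the cell cycle kinases CDK4 and CDK6, by RNA-seq of 6 established human cell lines. The drug-sensitive MPM lines were MSTO-211H, H28, H2452 and H2052. The resistant ones were MeT-5A, which are SV40-immortalized mesothelial cells, and the MPM line MPP89, in which RB1 is mutated. Cells were kept for 9 or 10 days in 0.1% DMSO or in 1 µM palbociclib, and in the 4 sensitive lines 1 culture each was followed for 48 h after removal of the drug (washout). DMSO and palbociclib libraries form pairs from the same experiment. There were 2 pairs of H2052, 3 each of H2452, H28 and MSTO-211H, 2 of MPP89 and 1 of MeT-5A, which also had 1 untreated library. Each line is a single culture model, so its replicates are repeats of an experiment in 1 line and not samples from several tumours.

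WNT proteins are secreted lipid-modified ligands that bind Frizzled receptors. With the co-receptors LRP5 and LRP6 they stabilise β-catenin, which then activates transcription together with TCF and LEF factors, while ligands such as WNT5A mostly act through branches that do not need β-catenin. DKK1 blocks the co-receptors, and SFRP1 binds the ligands themselves. AXIN2, a feedback inhibitor, and LEF1 are classical transcriptional targets of the β-catenin branch.

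Start-site sequences were printed for DKK1 and LEF1, since both were lower with palbociclib over the sensitive lines (values are given further on) and each has 1 start in the RefSeq table for GRCh38.p14. The table held 9 windows for 6 of the 10 genes, and 3 of these genes, WNT2B, WNT5A and WNT5B, had 2 windows each. WNT7B, DKK3, SFRP1 and AXIN2 had no entry. The windows below are the 250 bases before the start, written 5′ to 3′ on the strand of the gene, and capitals mark a match to the TCF/LEF motif. The DKK1 window is chr10:52314031-52314280 on the plus strand, and the LEF1 window is chr4:108166302-108166551 on the minus strand.
DKK1: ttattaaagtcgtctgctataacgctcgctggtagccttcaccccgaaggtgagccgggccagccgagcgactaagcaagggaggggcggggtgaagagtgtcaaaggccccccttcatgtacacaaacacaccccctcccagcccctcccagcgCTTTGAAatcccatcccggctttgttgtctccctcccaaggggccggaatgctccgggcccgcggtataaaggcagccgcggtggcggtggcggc
LEF1: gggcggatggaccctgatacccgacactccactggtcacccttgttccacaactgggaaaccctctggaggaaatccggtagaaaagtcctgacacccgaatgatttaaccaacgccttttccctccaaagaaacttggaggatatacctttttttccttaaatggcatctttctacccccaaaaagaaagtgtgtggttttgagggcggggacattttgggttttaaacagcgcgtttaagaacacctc

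The TCF/LEF motif was searched as ATCAAAG or TTCAAAG and the E2F motif as TTCGCGC or TTGGCGC, on both strands. Other spellings, such as AACAAAG for TCF/LEF, were not searched, and the matches and shares below depend on this choice. The letters of these motifs do not overlap. DKK1 held 1 TCF/LEF match, from 95 to 89 bases before the start on the opposite strand. The LEF1 window, which lies inside the gene, held none. The only other match in the 9 windows was an E2F match on the gene strand in the second WNT2B window, from 97 to 91 bases before that start. Over the 35116 promoters of the table, 5.94% held the TCF/LEF motif and 4.24% the E2F motif in the same 250 bases. These matches describe the letters of the windows and no binding was measured.

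The depth of a library could be read from the deposited values in 22 of the 33 libraries, and it ranged from 12770000 to 19820000 reads. In the libraries of lowest depth 1 read was worth 1.57 CP20M, so values of a few CP20M rest on a few reads. Of 13 mesothelial markers 11 reached 100 CP20M in a DMSO library, with a summed level from 11547 to 108422 CP20M. Defining markers were missing in some lines: WT1 was at 0 in the DMSO library of MeT-5A, CALB2 was at 0 to 2 CP20M and MSLN at 1 to 9 in H28, and PDPN was at 0 in MSTO-211H. The summed level of 5 leukocyte markers was 2 to 365 CP20M, that of 4 endothelial markers 8 to 172 and that of 2 adipocyte markers 5 to 15. The summed level of 3 neuroendocrine or neural markers was higher, at 396 to 5280 CP20M, and TUBB3 alone reached 5263 in H28. A set of 11 libraries stood apart by mitochondrial rRNA, with 4355 to 27648 CP20M of MT-RNR1 against 52 to 1160 in the other 22. They were the replicate 2 pairs of H2452, H28, MSTO-211H and MPP89, the pair of MeT-5A and the washout library of H28. The test of levels among the lines, the changes over the sensitive lines and their difference among lines were also run without these libraries. Within H2452, H28 and MSTO-211H, leaving out replicate 2 removes them. The steps between neighbouring lines and the changes within MPP89 and MeT-5A were not run without them.

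In the DMSO libraries the lines differed in the 10 genes, as in most genes tested, and for WNT2B they overlapped. MPP89 and MeT-5A were the lines with WNT2 and with the highest WNT5A, H2052 was highest in WNT5B, MSTO-211H and H2052 in DKK1, H2452 in DKK3, and MeT-5A in AXIN2. Levels differed among the 6 lines for 10 of 10 genes (limma F test, FDR from 6.56e-09 for SFRP1 to 0.0166 for WNT2B), but this was also the case for 95.6% of all genes tested. FDR is the Benjamini-Hochberg adjusted p over all genes tested. RNA from bulk cultures was measured, in which fewer cells of a type and less RNA per cell cannot be told apart.

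**Figure D1:**
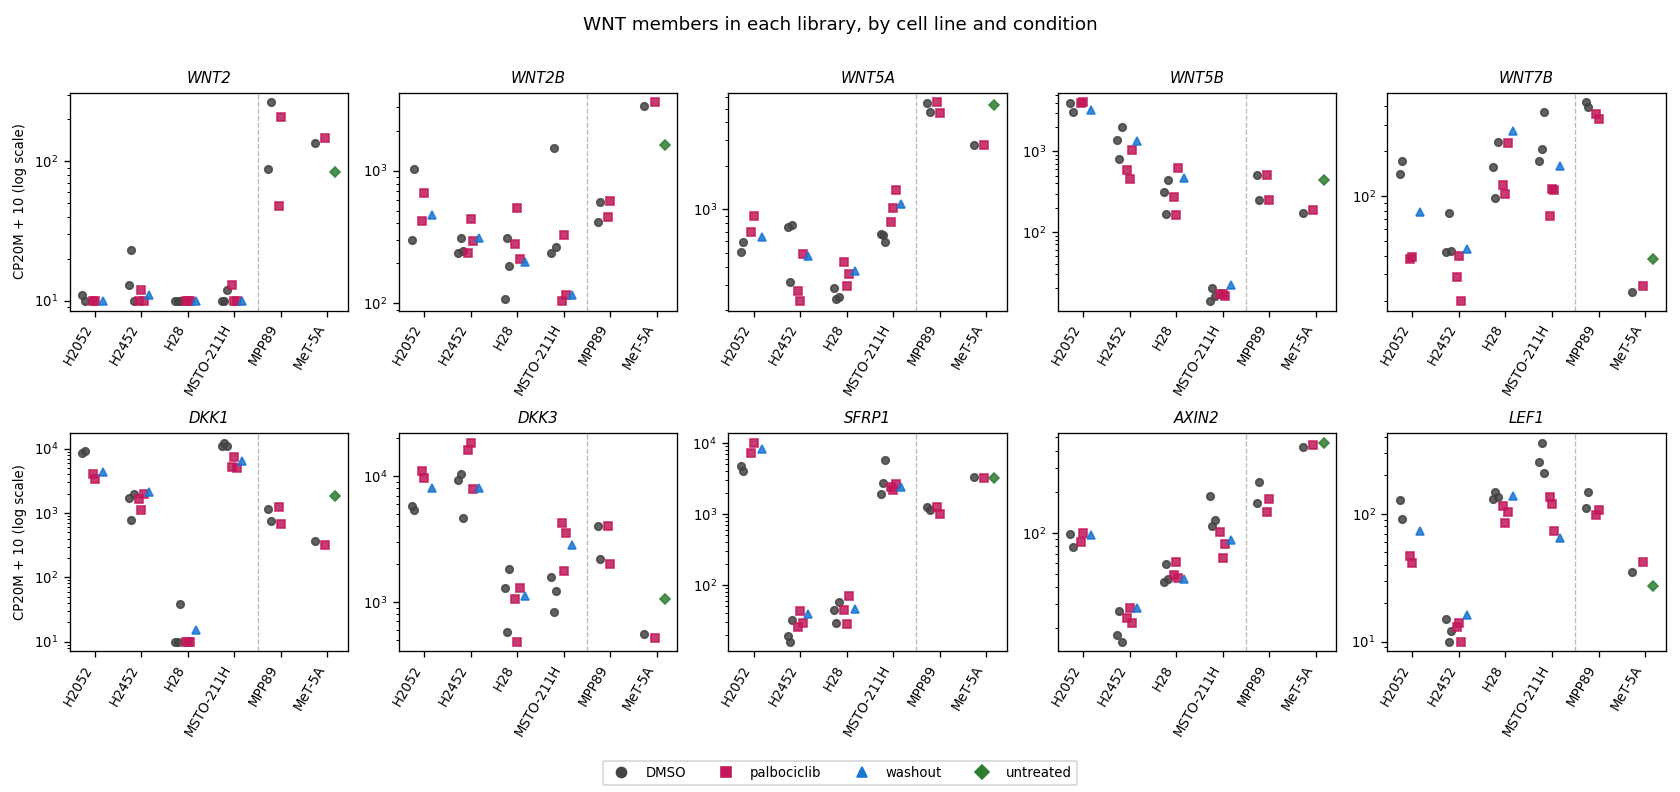
CP20M + 10 of each gene on a log axis in every library, by cell line, with DMSO as circles, palbociclib as squares, washout as triangles and the untreated library as a diamond. The dashed line parts the 4 sensitive lines from the 2 resistant ones, and the 2 resistant lines hold all WNT2 values above 13 CP20M.

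WNT2 (ENSG00000105989, chromosome 7 from 117275451 to 117323152, minus strand, GRCh38) encodes a ligand of the β-catenin branch. In DMSO it was at 78 and 254 CP20M in MPP89 and at 125 in MeT-5A, whose untreated library had 74. In the 11 DMSO libraries of the sensitive lines it was at 0 to 13 CP20M, and at 0 in all 3 of H28. The resistant lines were the 2 highest, and the step from MeT-5A to H2452, the next line, was 3.23 on the log2(CP20M + 10) scale (SE 0.51, FDR 0.000221). Because WNT2 passed the filter through the resistant lines alone, a difference from the sensitive lines had to appear. Neighbours lower in the order did not differ beyond their spread.

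WNT2B (ENSG00000134245, chromosome 1 from 112466541 to 112530165, plus strand) was at 3051 CP20M in the DMSO library of MeT-5A and at 1539 in its untreated library. H2052 had 292 and 1027 CP20M, and MSTO-211H had 230, 1476 and 256. MPP89 stood at 401 and 568, H2452 at 230, 300 and 239, and H28 at 98, 303 and 183. The lines overlapped, and no neighbours in this order differed, the step from MeT-5A to H2052 included (2.45, SE 0.97, FDR 0.0523). Within each of the 5 lines that had control libraries of both kinds, WNT2B was higher in the library high in MT-RNR1, by 0.34 to 2.56 on the log2(CP20M + 10) scale, and the value of 1476 in MSTO-211H came from such a library. In MeT-5A the library low in MT-RNR1 was the untreated one, so there the control libraries also differ in condition. The part of mitochondrial rRNA in the WNT2B levels was not tested. When those libraries were left out and the untreated library stood for MeT-5A, an alternative chosen after seeing the data, the levels of 10 of 10 genes still differed among the lines. When only the DMSO library of MeT-5A was left out, and with it that line, the levels of 9 genes did, and those of WNT2B no longer.

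WNT5A (ENSG00000114251, chromosome 3 from 55465715 to 55490539, minus strand), the main ligand of the branches that do not need β-catenin, was at 5455 and 4736 CP20M in MPP89. MeT-5A had 2778 in DMSO and 5296 untreated. The sensitive lines ranged from 228 to 765, and the lowest was H28 with 275, 228 and 237 CP20M. All control libraries of the resistant lines lay above all those of the sensitive lines, and the step from MeT-5A down to MSTO-211H was 2.12 (SE 0.39, FDR 0.000707). H28 was below H2052 by 1.10 (SE 0.31, FDR 0.00729), whereas MSTO-211H, H2452 and H2052 did not differ in turn.

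WNT5B (ENSG00000111186, chromosome 12 from 1529891 to 1647212, plus strand), a close relative of WNT5A, had another order. It was at 3975 and 3065 CP20M in H2052, at 1382, 806 and 2006 in H2452, and at 4, 10 and 6 in MSTO-211H. MPP89 with 503 and 237, H28 with 300, 159 and 438 and MeT-5A with 162 lay in between and did not differ in turn. The steps from H2052 to H2452 (1.41, SE 0.44, FDR 0.0162), from H2452 to MPP89 (1.89, SE 0.44, FDR 0.00277) and from MeT-5A to MSTO-211H (3.38, SE 0.56, FDR 0.000356) were larger than the spread. WNT5B was lower in the control library high in mitochondrial rRNA in 4 of 5 lines, with a range from -1.35 in MeT-5A to 0.42 in MSTO-211H. In MeT-5A that library was the DMSO one and the other was untreated, so they also differ in condition. The part of mitochondrial rRNA in the WNT5B levels was not tested either.

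**Figure D2:**
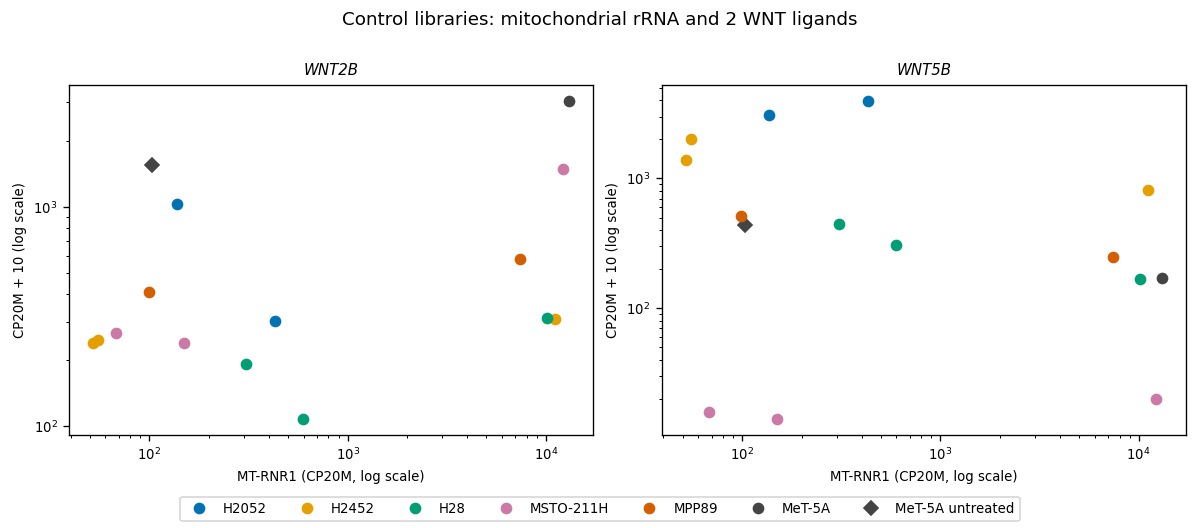
Control libraries (DMSO, and the untreated MeT-5A library as a diamond) by MT-RNR1 in CP20M on the x axis and WNT2B or WNT5B as CP20M + 10 on the y axis, both on log axes. Within each line that has both kinds of library, WNT2B is higher in the libraries high in MT-RNR1, by 0.34 to 2.56 on the log2 scale, and WNT5B is lower in 4 of the 5 lines. In MeT-5A the library low in MT-RNR1 is the untreated one.

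WNT7B (ENSG00000188064, chromosome 22 from 45920366 to 45977162, minus strand), a ligand known for activating β-catenin, was at 413 and 385 CP20M in MPP89 and at 163, 196 and 354 in MSTO-211H. H2052 had 130 and 161 CP20M and H28 had 146, 87 and 219. H2452, with 32, 67 and 33, and MeT-5A, with 13, were the lowest lines. Only the step from H28 to H2452 passed the threshold among neighbours (1.55, SE 0.35, FDR 0.00204).

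Among the antagonists, DKK1 (ENSG00000107984, chromosome 10 from 52314281 to 52318042, plus strand) spanned the widest range of mean log2 levels among the 10 genes. It was at 11141, 12046 and 11166 CP20M in MSTO-211H, at 8558 and 9329 in H2052, and at 0, 0 and 29 in H28. H2452 had 1707, 759 and 1935, MPP89 had 1125 and 747, and MeT-5A had 355. MSTO-211H and H2052 did not differ, while the steps from H2052 to H2452 (2.71, SE 0.52, FDR 0.000787) and from MeT-5A to H28 (4.54, SE 0.66, FDR 0.000116) did.

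DKK3 (ENSG00000050165, chromosome 11 from 11956207 to 12009769, minus strand), a Dickkopf family member whose action on WNT signalling depends on the cell, was at 9371, 10462 and 4676 CP20M in H2452 and at 5762 and 5340 in H2052. MPP89 had 4023 and 2184, MSTO-211H had 1572, 821 and 1199, H28 had 1288, 564 and 1815, and MeT-5A had 547. The only neighbours that differed were MPP89 and MSTO-211H (1.35, SE 0.47, FDR 0.0271). SFRP1 (ENSG00000104332, chromosome 8 from 41261962 to 41309473, minus strand) was low in H2452, at 9, 6 and 22 CP20M, and in H28, at 35, 19 and 48. In H2052, MeT-5A and MSTO-211H it ranged from 1919 to 5750 CP20M, and these 3 lines did not differ in turn. MPP89, with 1253 and 1115 CP20M, lay above H28 by 4.82 (SE 0.42, FDR 9.09e-07).

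Per length, both targets were lower than all 3 antagonists in 4 of 6 lines, H28 and MeT-5A being the exceptions. The mean DMSO level in MSTO-211H, divided by the length of all exons of the gene in kb, was 25.2 CP20M per kb for AXIN2 and 48.8 for LEF1, against 5156 for DKK1, 731 for SFRP1 and 100.1 for DKK3. In H2452 the order rests on low values, with 1.99 CP20M per kb for AXIN2 against 2.61 for SFRP1. AXIN2 (ENSG00000168646, chromosome 17 from 65528563 to 65561648, minus strand) was highest in MeT-5A, with 412 CP20M in DMSO and 441 untreated, followed by MPP89 with 154 and 224. It was lowest in H2452 with 8, 17 and 6 CP20M. MeT-5A lay above MPP89 by 1.11 (SE 0.39, FDR 0.0429), and H28, at 34, 49 and 36 CP20M, lay above H2452 by 1.31 (SE 0.26, FDR 0.000757).

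LEF1 (ENSG00000138795, chromosome 4 from 108047545 to 108168956, minus strand) was at 243, 345 and 197 CP20M in MSTO-211H, at 120, 138 and 125 in H28, at 100 and 137 in MPP89 and at 118 and 81 in H2052. MeT-5A had 25 and H2452 had 5, 0 and 2 CP20M. MSTO-211H lay above H28 by 0.95 (SE 0.24, FDR 0.00407). H28, MPP89 and H2052 did not differ in turn. H2452 was thus the lowest line for both targets and for SFRP1.

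The gene most like each member over the 33 libraries, by Pearson r of log2(CP20M + 10), was ENSG00000275266 for WNT2 (r = 0.967), KMT5B for WNT2B (0.915), WNT5A-AS1 for WNT5A (0.980), AL049634.2 for WNT5B (0.935) and LINC01515 for WNT7B (0.892). For the others it was LRRK1 for DKK1 (0.968), MST1R for DKK3 (0.910), PPP4R4 for SFRP1 (0.969), MEIS1 for AXIN2 (0.969) and SLITRK5 for LEF1 (0.948). These values describe 33 libraries of only 6 lines, and libraries of a line share its genome. The r of WNT2 also carries the split between the resistant lines, through which alone it passed the filter, and the sensitive lines. WNT5A-AS1 lies on the strand opposite to WNT5A and overlaps it. The strand setting of the counting is not given in the sources used here, so reads of such a pair may not be separated. WNT2, WNT2B, WNT5B, DKK1, DKK3, SFRP1 and LEF1 also overlap a gene on the opposite strand. AXIN2 overlaps ENSG00000266076, the gene second in likeness to it (r = 0.962), on its own strand, as SFRP1 does a small RNA and a long non-coding RNA.

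Over the 11 pairs of the sensitive lines, palbociclib lowered the ligand WNT7B, the antagonist DKK1 and the target LEF1 and raised the antagonist DKK3. A gene is called here when its FDR was under 0.05 and its fold change over 1.5. By this rule 4 of 10 members were called, 1 higher and 3 lower, where 15.0% of all genes tested were called, 5.58% higher and 9.37% lower. With the means of the 4 lines as units in place of the 11 pairs, 0 members were called, with FDR from 0.0592 for WNT7B to 0.118 for DKK3. The median change of the 10 members was -0.14 on the log2(CP20M + 10) scale and that of all genes was -0.11.

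The split of the calls over all genes depended on the scaling. Of the 2663 genes called with the deposited scaling 37.3% were higher, and of the 2679 called after median-of-ratios scaling 65.7% were, as that scaling moved the median of all genes from -0.11 to 0.058. Median-of-ratios scaling kept WNT7B (-0.82, FDR 0.00378), LEF1 (-0.59, FDR 0.0144) and DKK3 (0.85, FDR 0.00324) among the calls, and DKK1 was no longer called (-0.47, FDR 0.0719).

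**Figure D3:**
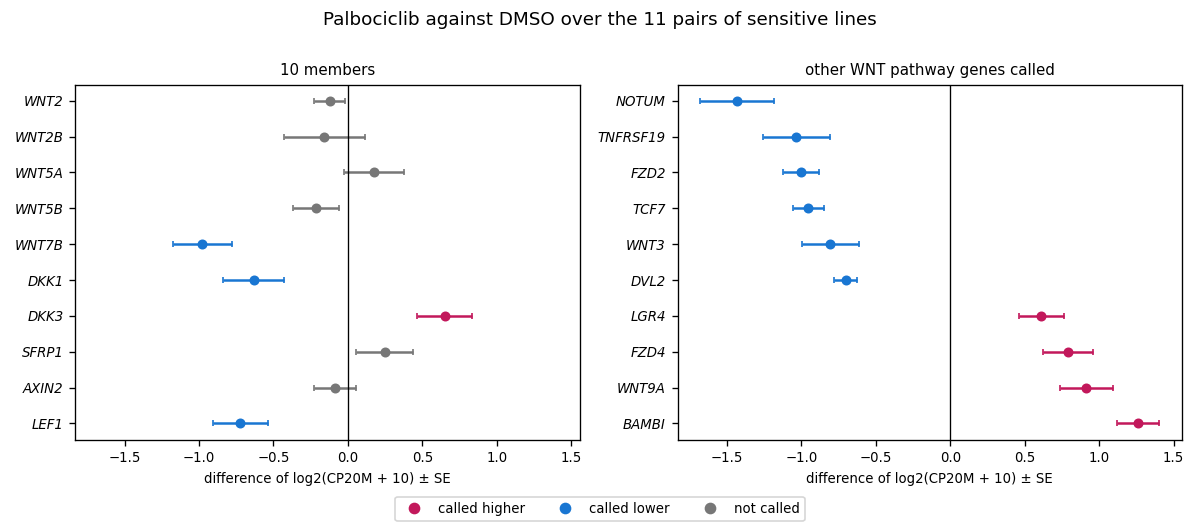
Change with palbociclib over the 11 pairs of sensitive lines, as a difference of log2(CP20M + 10) with its SE, for the 10 members and for the 10 other WNT pathway genes that were called. WNT7B, LEF1 and DKK1 lie below 0 and DKK3 above it, and the other 6 members are not called.

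WNT7B fell in 10 of 11 pairs. In H2052 it went from 130 and 161 CP20M in DMSO to 28 and 29, in MSTO-211H from 163, 196 and 354 to 64, 102 and 100, and in H2452 from 32, 67 and 33 to 19, 30 and 10. H28 had 146, 87 and 219 in DMSO against 109, 94 and 215. In the first 3 lines every palbociclib library lay below every DMSO library, and in H28 the conditions overlapped. The change over the 11 pairs was -0.98 (SE 0.20, FDR 0.00144), and its size differed among the 4 lines (F test, FDR 0.00368).

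LEF1 also fell in 10 of 11 pairs. It went from 243, 345 and 197 CP20M to 125, 109 and 63 in MSTO-211H, from 118 and 81 to 37 and 31 in H2052, and from 120, 138 and 125 to 105, 74 and 93 in H28. In these 3 lines the conditions did not overlap, whereas H2452 had at most 5 CP20M in any DMSO or palbociclib library. The change was -0.72 (SE 0.18, FDR 0.00576) and differed among the lines (FDR 0.0107). Without MSTO-211H it was -0.50 and no longer called (FDR 0.0612). The call was also lost with a pseudocount of 1 (-0.78, FDR 0.0551), with a pseudocount of 50, where the change was under the fold threshold (-0.53), and with 9-day (FDR 0.0714) or 10-day pairs alone (FDR 0.0803).

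DKK1 was lower in 7 of 11 pairs, higher in 2 and at 0 in both libraries of 2. In H2052 it went from 8558 and 9329 CP20M to 4092 and 3340, and in MSTO-211H from 11141, 12046 and 11166 to 5252, 7400 and 5011. H2452 had 1707, 759 and 1935 in DMSO and 1644, 1098 and 1965 in palbociclib. H28 had 0, 0 and 29 CP20M in DMSO and 0 in all 3 palbociclib libraries, so its difference came from 1 library. The change over all pairs was -0.63 (SE 0.21, FDR 0.0208), and a difference among the lines did not pass the threshold (FDR 0.0903). This call was lost without replicate 3 of H28 (-0.50), replicate 3 of MSTO-211H (-0.58) or replicate 2 of H2052 (-0.55), and without the line MSTO-211H (-0.50) or H2052 (-0.49).

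DKK3 was the member that rose. It went from 5762 and 5340 CP20M to 11052 and 9691 in H2052, from 9371, 10462 and 4676 to 16190, 18230 and 7950 in H2452, and from 1572, 821 and 1199 to 4256, 1745 and 3523 in MSTO-211H. In H28 it went the other way in 3 of 3 pairs, from 1288, 564 and 1815 to 1045, 473 and 1275. All 8 pairs of the first 3 lines were higher, and the conditions did not overlap in H2052 and MSTO-211H. The change was 0.65 (SE 0.18, FDR 0.00992), and DKK3 showed the clearest difference among the lines of the 10 members (FDR 9.87e-05). Without MSTO-211H the change was 0.39 and not called (FDR 0.112), and without H2452 it was 0.60 and not called (FDR 0.0715). It was under the fold threshold without replicate 1 (0.57) or replicate 3 (0.56) of MSTO-211H.

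**Figure D4:**
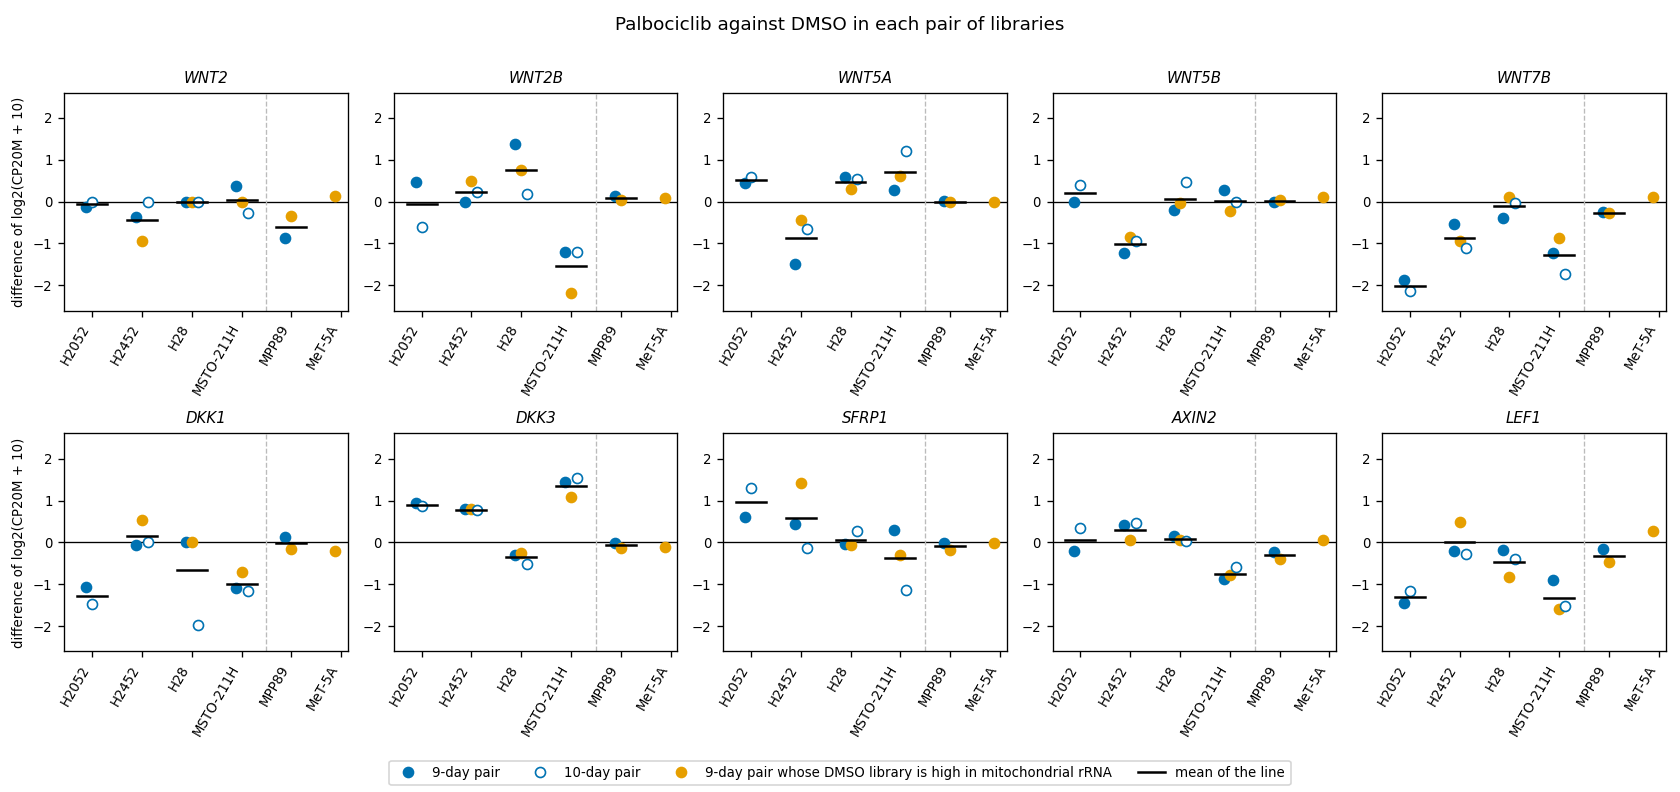
Difference of log2(CP20M + 10) between palbociclib and DMSO in each of the 14 pairs, by line, with the mean of a line as a bar. Filled points are 9-day pairs, open points 10-day pairs, and orange points pairs high in mitochondrial rRNA. DKK3 is above 0 in all pairs of H2052, H2452 and MSTO-211H and below 0 in the 3 pairs of H28, and WNT5A is below 0 only in the 3 pairs of H2452 among the sensitive lines.

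The response differed among the 4 sensitive lines for 7 of 10 members (limma F test, FDR under 0.05), where 37.1% of all genes did so. These were WNT2B, WNT5A, WNT5B, WNT7B, DKK3, AXIN2 and LEF1. Without the experiment as a block only LEF1 was left. Without the pairs high in mitochondrial rRNA, an alternative chosen after seeing the data, the number was again 7, and the pooled fit again called 4 members, with WNT7B at -1.13, DKK1 at -0.85, DKK3 at 0.69 and LEF1 at -0.76.

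WNT5A was not called over the pairs (0.18, SE 0.20, FDR 0.484), and the lines went different ways. It was higher in 8 of 8 pairs of H2052, H28 and MSTO-211H, for example from 663, 654 and 580 CP20M to 806, 1006 and 1351 in MSTO-211H. In H2452 it went from 748, 303 and 765 to 259, 222 and 479, lower in 3 of 3 pairs. Within lines none of these changes passed the threshold (FDR 0.0897 in MSTO-211H, 0.0519 in H2052, 0.0591 in H28 and 0.0644 in H2452), but the difference among the lines did (FDR 0.00543).

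WNT5B fell in H2452 from 1382, 806 and 2006 CP20M to 585, 441 and 1043, whereas H2052 had 3975 and 3065 in DMSO and 3949 and 4050 in palbociclib. The change in H2452 was -1.01 (SE 0.094, FDR 0.0142), and the difference among the lines had an FDR of 0.00675. WNT2B fell in the 3 pairs of MSTO-211H, from 230, 1476 and 256 CP20M to 95, 315 and 105 (the middle pair is high in mitochondrial rRNA), and was higher in the 3 pairs of H28, from 98, 303 and 183 to 268, 514 and 207. The difference among the lines had an FDR of 0.00439.

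AXIN2, unlike LEF1, was not called. Over the 11 pairs its change was -0.086 (SE 0.14, FDR 0.630), with 7 pairs higher and 4 lower. In MSTO-211H it went from 176, 102 and 115 CP20M to 92, 55 and 73, a change of -0.75 (SE 0.16, FDR 0.0518), and in H2452 from 8, 17 and 6 to 14, 18 and 12. The difference among the lines had an FDR of 0.0130. The direction over all pairs was reversed by median-of-ratios scaling, at 0.071, as was that of WNT2B, from -0.16 to 0.032.

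SFRP1 had a change of 0.25 (SE 0.19, FDR 0.309). It went from 4661 and 3980 CP20M to 7124 and 9827 in H2052 (0.96, SE 0.21, FDR 0.0604, and called with a pseudocount of 50, median-of-ratios scaling, a filter within the fit or no block), and from 1919, 2707 and 5750 to 2380, 2181 and 2627 in MSTO-211H, where the conditions overlapped. WNT2, at no more than 13 CP20M in any library of the sensitive lines, had no measurable change at this depth.

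Fitted line by line, the members called in H2052 were 1 higher and 3 lower, where 17.6% of all genes were called, 4.67% higher and 13.0% lower. In H2452 they were 1 higher and 2 lower (16.8% of all genes, 6.04% higher and 10.8% lower). In H28 they were 0 (13.2% of all genes, 5.89% higher and 7.34% lower), and in MSTO-211H 1 higher and 4 lower (13.8%, 5.90% higher and 7.94% lower). Median-of-ratios scaling moved the share of higher genes among all calls from 26.5% to 70.8% in H2052, from 35.9% to 61.4% in H2452, from 44.5% to 61.6% in H28 and from 42.7% to 67.5% in MSTO-211H. In H2052 WNT7B (-2.01, SE 0.17, FDR 0.0372), DKK1 (-1.27, SE 0.14, FDR 0.0386) and LEF1 (-1.30, SE 0.17, FDR 0.0397) were lower and DKK3 (0.90, SE 0.090, FDR 0.0376) was higher. In H2452 WNT5B and WNT7B (-0.86, SE 0.15, FDR 0.0265) were lower and DKK3 (0.78, SE 0.056, FDR 0.0125) was higher. In MSTO-211H WNT2B (-1.53, SE 0.27, FDR 0.0408), WNT7B (-1.28, SE 0.23, FDR 0.0417), DKK1 (-0.98, SE 0.13, FDR 0.0355) and LEF1 (-1.33, SE 0.21, FDR 0.0379) were lower and DKK3 (1.35, SE 0.12, FDR 0.0349) was higher.

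Without the block 0 members were called in H2452 and 2 in MSTO-211H, which were DKK1 and LEF1, whereas in H2052 the same 4 were called and SFRP1 in addition. In MSTO-211H leaving out any of the 3 pairs left 0 calls, and in H2452 leaving out replicate 1 or replicate 3 did. In H28, with 10 members not called, 2354 genes of the whole table were called and 7417 had an unadjusted p under 0.05. WNT5A was called there after median-of-ratios scaling (0.60, FDR 0.0453).

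In the resistant lines no member was called, as was no other gene (0% of 17803 genes by limma, with 1258 at an unadjusted p under 0.05 over the 3 pairs). MPP89 had 413 and 385 CP20M of WNT7B in DMSO and 345 and 317 in palbociclib, 1125 and 747 of DKK1 against 1233 and 665, and 4023 and 2184 of DKK3 against 3992 and 1995. LEF1 was at 100 and 137 against 88 and 97 there. In the single pair of MeT-5A none of the 10 genes moved by more than 0.27 on the log2(CP20M + 10) scale. Among these genes WNT2 in MPP89 had the largest change, from 78 and 254 CP20M to 38 and 197 (-0.61, SE 0.17, FDR 0.837), and it was called only when genes were filtered within the libraries of MPP89.

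The difference in response between the sensitive and the resistant lines was tested on its own, and no member passed the threshold (FDR under 0.05), where 9.37% of all genes did, 1.56% higher and 7.81% lower in the sensitive lines. After median-of-ratios scaling the share of higher genes among these went from 16.7% to 59.9%. WNT7B came closest (-0.84, SE 0.40, FDR 0.195), followed by DKK3 (0.73, SE 0.37, FDR 0.215) and LEF1 (-0.60, SE 0.38, FDR 0.326). The changes in the sensitive lines are therefore not shown to differ from those in the resistant lines, which had 3 pairs in all.

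After 48 h of washout the members called lower in palbociclib lay between the palbociclib and the DMSO level in some lines. WNT7B was higher after washout than in palbociclib in 4 of 4 lines, at 68 against 29 CP20M in H2052, 34 against 10 in H2452, 264 against 215 in H28 and 149 against 100 in MSTO-211H. The matched DMSO libraries had 161, 33, 219 and 354. H2452 and H28 were thus at or above their DMSO level, and H2052 and MSTO-211H below it. The washout library of H28 was high in mitochondrial rRNA, and the libraries matched to it were not. The change from palbociclib was 0.74 (SE 0.31, FDR 0.351) and that from DMSO -0.51 (SE 0.31, FDR 0.305).

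No member was called after washout, against palbociclib (1.40% of all genes were called, all of them higher) or against DMSO (5.76%, 2.81% higher and 2.95% lower). Of the calls against DMSO 48.7% were higher, and 72.3% after median-of-ratios scaling. At an unadjusted p under 0.05 there were 2322 genes of the whole table in the first comparison and 5265 in the second. LEF1 was at 63 CP20M against 31 in palbociclib and 81 in DMSO in H2052, at 128 against 93 and 125 in H28, and at 55 against 63 and 197 in MSTO-211H. The washout level was near that of DMSO in H28, in the library high in mitochondrial rRNA, and below that of palbociclib in MSTO-211H.

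DKK1 was nearer to palbociclib than to DMSO in H2052 and MSTO-211H. It had 4270 CP20M after washout against 3340 in palbociclib and 9329 in DMSO in H2052, and 6383 against 5011 and 11166 in MSTO-211H. Against DMSO it was -0.80 (SE 0.26, FDR 0.0734), and without H2452, whose 3 libraries had 1935, 1965 and 2085 CP20M, it was called at -1.10. Both values include H28, at 29 CP20M in DMSO, 0 in palbociclib and 5 after washout. Its difference from DMSO (-1.38) was the largest of the 4 lines and came from low values with 1 library each. DKK3 after washout was above DMSO in H2052 (8101 after washout, 9691 in palbociclib, 5340 in DMSO), H2452 (8044, 7950 and 4676) and MSTO-211H (2842, 3523 and 1199), and below it in H28 (1101, 1275 and 1815). Over the 4 lines its change from DMSO was 0.48 (SE 0.28, FDR 0.293). Without H28, the only line below DMSO and the one whose washout library was high in mitochondrial rRNA, it was 0.87 and called. Both washout comparisons share the washout libraries.

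**Figure D5:**
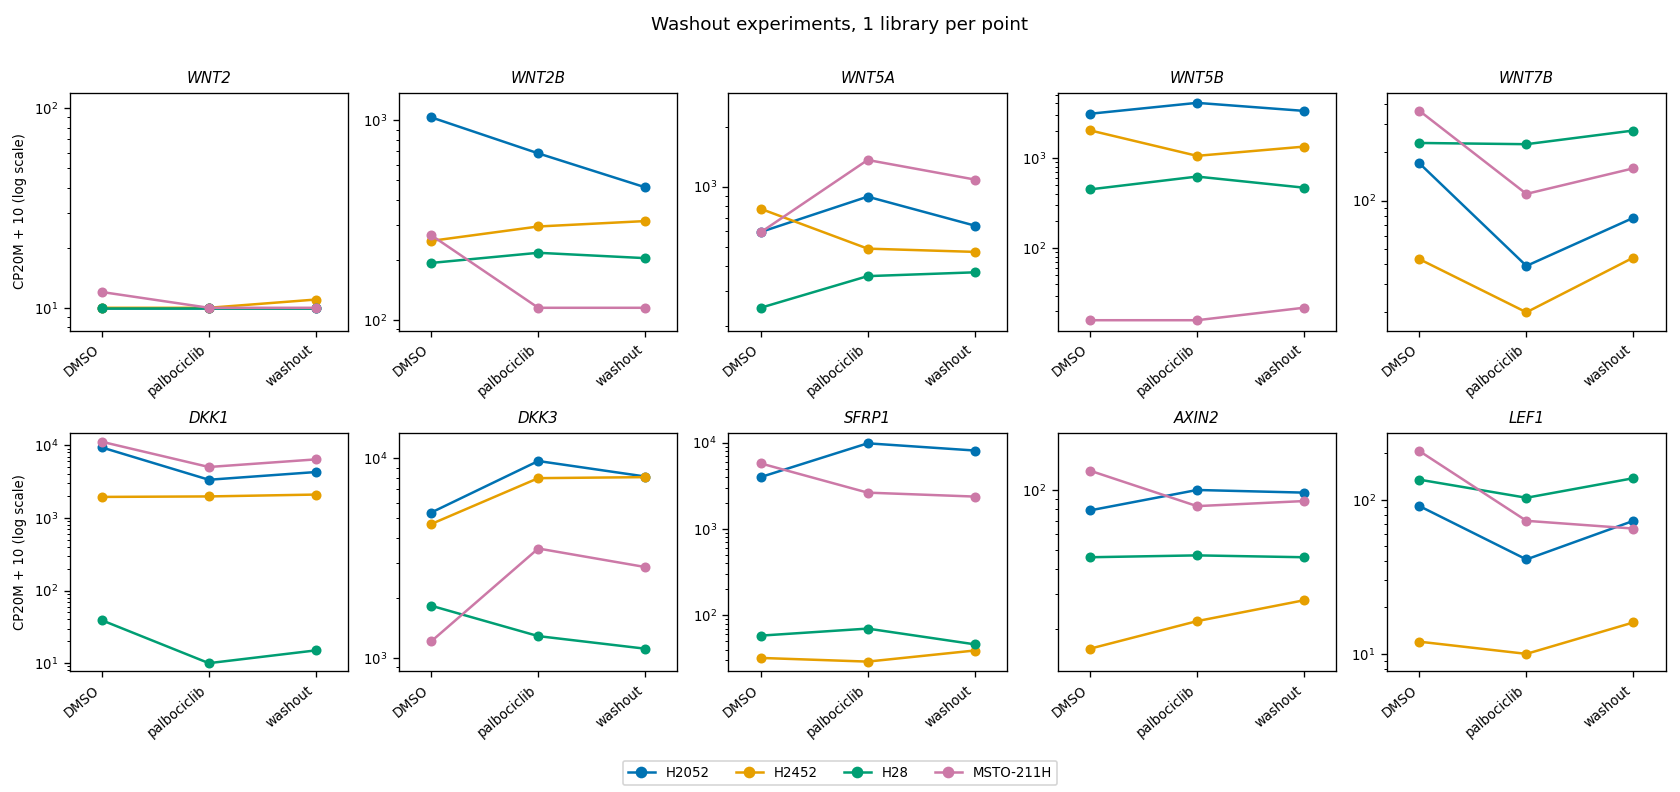
The 10-day DMSO, 10-day palbociclib and washout library of each sensitive line as CP20M + 10 on a log axis, 1 library per point, for the 10 members. WNT7B rises from palbociclib to washout in 4 of 4 lines, and DKK1 in H2052 and MSTO-211H stays below DMSO.

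The other WNT pathway genes, taken from 7 lists by role, numbered 84, of which 61 were tested. Over the sensitive lines 4 were called higher, 6 lower and 51 not, which is 10 of 61 beside the 15.0% of all genes, and their median change was -0.0090. Of the 7 other ligands tested WNT3 was lower (-0.81, SE 0.19, FDR 0.00356) and WNT9A higher (0.91, SE 0.18, FDR 0.000888). The mean of WNT3 over the sensitive lines went from 354 CP20M in DMSO to 177, and that of WNT9A from 83.2 to 150. In MSTO-211H WNT3 did not fall, with means of 106 CP20M in DMSO and 107.33 in palbociclib. Neither of the 2 ligand secretion genes, PORCN and WLS, was called.

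Among 15 receptors and co-receptors, the Frizzled receptor FZD2 was lower (-1.0, SE 0.12, FDR 2.81e-05), from a mean of 1045 to 447 CP20M, and FZD4 was higher (0.79, SE 0.17, FDR 0.00195), from 465 to 667. In H2452 FZD4 did not rise, with means of 1048 CP20M in DMSO and 1000.67 in palbociclib. Of the 5 other antagonists tested NOTUM, a secreted enzyme that removes the lipid from WNT proteins, was lower (-1.43, SE 0.25, FDR 0.000415), from 47.9 to 6.91 CP20M. Of the 5 genes of the R-spondin system LGR4, an R-spondin receptor, was higher (0.61, SE 0.15, FDR 0.00434). In H2452 LGR4 had means of only 319 CP20M in DMSO and 329 in palbociclib. Among the 20 relay genes DVL2, which links Frizzled receptors to the destruction complex, was lower (-0.70, SE 0.080, FDR 1.88e-05).

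Of the 7 other target genes tested TCF7, a DNA-binding partner of β-catenin like LEF1, was lower (-0.95, SE 0.11, FDR 1.64e-05), from a mean of 288 to 135 CP20M. TNFRSF19 was lower as well (-1.03, SE 0.23, FDR 0.00215), and BAMBI, which is also known as an inhibitor of TGF-β receptors, was higher (1.26, SE 0.14, FDR 1.76e-05), from 271 to 762 CP20M. The targets thus moved both ways. The response differed among the sensitive lines for 34 of the 61 genes, beside 37.1% of all genes. After washout 5 of the 61 were above DMSO (WNT9A, FZD1, FZD4, LGR4 and BAMBI), beside 2.81% of all genes, and 1, FZD2, was below it, beside 2.95%.

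CTNNB1, the gene of β-catenin and one of the relay genes, was singled out after its values were seen. In H28 it was at 57 to 123 CP20M in all 7 libraries, with 62, 89 and 123 in DMSO, 57, 58 and 82 in palbociclib and 102 after washout. The other 26 libraries had 3757 to 8968 CP20M, so the lowest of them was 30.5 times the highest of H28. In the same line DKK1 was at 0 to 29 CP20M and SFRP1 at 18 to 60, while LEF1 and AXIN2 were measured at 74 to 138 and 34 to 51 CP20M. Low SFRP1 was not particular to H28. H2452, with CTNNB1 at 3757 to 4171 CP20M, had SFRP1 at 6 to 33 and AXIN2 at 6 to 18, but DKK1 at 759 to 2085. A link of these levels to CTNNB1 was not tested. Palbociclib left CTNNB1 uncalled over the sensitive lines (-0.14, SE 0.066, FDR 0.0879).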

How the data were processed

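Total RNA of 6 cell lines was sequenced in 33 paired-end libraries from a directional kit. The submitters' processing notes name Trimmomatic 0.36, STAR 2.5.3, HTSeq 0.9.1 and DESeq2, and the reads were mapped to GRCh38. The deposited values are a normalized score: the authors scaled the counts of each library to 20000000 reads (CP20M) and rounded them up, so that they are not counts of reads and DESeq2 was not used here. Column totals carry no depth, and depth was read from whole numbers that are skipped. The 11 libraries that skip almost none gave no depth.

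Values were taken as log2(CP20M + 10) for genes with at least 100 CP20M in a library, and fold changes on this scale understate changes of low genes. Tests were made with limma 3.58.1 (eBayes with trend) in R 4.3.3, with the experiment as a block for palbociclib and the line as a block for washout. Deviations from the group means of same-numbered DMSO and palbociclib libraries correlated in every line with more than 1 pair (Pearson r of 0.18 to 0.78, taken over genes). For MeT-5A this could not be checked. The study's methods pair the libraries by experiment. Whether replicates came from separate cultures beyond this is not given in the sources used here, and p-values measure the spread between these libraries. At most 4.33% of genes had equal values in a pair of replicate libraries. The fits were tested on simulated data. The MeT-5A line has 1 DMSO library, which is assumed to vary like the others.

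The members and the gene lists were chosen with earlier results of these data known. Named genes are the 10 members, up to 3 genes per role list and direction with the largest fold among those called over the sensitive lines, and the gene most like each member, with CTNNB1 added after its values were seen. Positions are from GENCODE 44 and promoters from RefSeq (GRCh38.p14). Alternatives were other pseudocounts, filters, scalings, variance models and blocks, line means, pairs of 1 duration, and leaving out pairs, lines or libraries.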

Additional observations from a re-analysis of the deposited data

Results flagged for a closer look

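The response to palbociclib differed among the 4 sensitive lines for 7 members by a test of the difference itself (limma F test, FDR over all genes). DKK3 had an FDR of 9.87e-05, with 8 of 8 pairs of H2052, H2452 and MSTO-211H higher and 3 of 3 pairs of H28 lower. WNT7B had 0.00368, WNT2B 0.00439, WNT5A 0.00543, WNT5B 0.00675, LEF1 0.0107 and AXIN2 0.0130. For WNT5A, H2452 was lower in 3 of 3 pairs and the other 3 lines were higher in every pair, and WNT2B and AXIN2 were lower in 3 of 3 pairs of MSTO-211H. All 7 differed again without the pairs high in mitochondrial rRNA, and without the experiment as a block only LEF1 did. No group had more than 3 libraries, so single libraries were not screened as outliers.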

How the results depend on the processing

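Over the single-gene values, 995 alternatives kept direction and call, 63 lost a call, 14 gained one and 42 reversed the sign, and of the counts of calls 152 stayed within 1.5 times and 25 moved further. The cause of a change was not tested. Over the sensitive lines 4 members were called, and 2 (WNT7B and DKK3) with a pseudocount of 1 or of 50, 0 with line means as units, and, in alternatives chosen after seeing the data, 2 (WNT7B and DKK3) with 9-day pairs and 1 (DKK1) with 10-day pairs. The other pathway genes called went from 10 to 5 with line means and to 5 with 10-day pairs. In H2052 the count went from 4 to 2 with a pseudocount of 1 and to 0 without the variance trend, and to 5 with a pseudocount of 50, a filter within the fit or no block (SFRP1 gained) and with median-of-ratios scaling (SFRP1 and WNT5A gained, DKK1 lost). In H28 it went from 0 to 1 with median-of-ratios scaling (WNT5A) or with a filter within the fit (WNT2B), in MSTO-211H from 5 to 3 with median-of-ratios scaling, and in MPP89 from 0 to 1 with a filter within the fit (WNT2). Without the replicate block the count was 0 in H2452, 2 in MSTO-211H and 1 for the difference among lines, and over the sensitive lines it was 4 with the same 4 genes.

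Signs reversed for WNT2B and AXIN2 over the sensitive lines with median-of-ratios scaling (0.032 and 0.071) and upper-quartile scaling (0.011 and 0.060), and for AXIN2 with 10-day pairs (0.060). Median-of-ratios scaling also reversed WNT2B in H2052 (0.24), WNT7B in H28 (0.022), WNT5B in MPP89 (-0.012), WNT5B and AXIN2 in washout against palbociclib (-0.10 and -0.019) and SFRP1 in washout against DMSO (0.013). A pseudocount of 50 reversed WNT5B in washout against palbociclib (-0.049) and DMSO (-0.069), and a pseudocount of 1 reversed WNT2 in the class difference (-0.020). None of these values was called.

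Leaving out 1 pair or line gave 1 to 4 members called over the sensitive lines, the lowest without MSTO-211H, and ranges of -0.50 to 0.36 for WNT2B, -0.32 to 0.082 for WNT5B, -0.019 to 0.57 for WNT5A and -0.23 to 0.16 for AXIN2. In H2452 it gave 0 to 2 calls, -0.016 to 0.27 for DKK1 and -0.23 to 0.14 for LEF1. In H28 it gave -0.21 to 0.038 for WNT7B, -0.13 to 0.21 for WNT5B and -0.042 to 0.12 for SFRP1. In MSTO-211H it gave 0 calls each time, -0.13 to 0.19 for WNT2 and -0.12 to 0.14 for WNT5B. In the resistant lines it gave -0.012 to 0.0029 for WNT5A and -0.31 to 0.048 for LEF1, and in the class difference -0.0077 to 0.49 for WNT2 and -0.0039 to 0.22 for AXIN2. In washout against palbociclib it gave -0.22 to 0.00041 for WNT2B and -0.12 to 0.17 for WNT5B. In washout against DMSO it gave 0 to 1 calls (DKK1 without H2452, DKK3 without H28), -0.14 to 0.21 for WNT5B, -0.070 to 0.37 for AXIN2, -0.44 to 0.33 for SFRP1, -0.088 to 0.046 for WNT2, -0.0066 to 0.53 for WNT5A and -0.65 to 0.043 for LEF1. A pair could not be left out within H2052 or MPP89, where 1 pair leaves no residual spread.

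At 12770000 to 19820000 reads, values of a few CP20M, such as WNT2 in the sensitive lines, LEF1 in H2452 and DKK1 in H28, rest on a few reads, and their fold changes depend on the pseudocount.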

Other observations

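Among the members themselves, the highest Pearson r of log2(CP20M + 10) over the 33 libraries was 0.83 between WNT2 and WNT5A, followed by 0.77 between LEF1 and WNT7B and 0.77 between SFRP1 and AXIN2. WNT2 passed the filter only through MPP89 and MeT-5A, which were also the highest in WNT5A, so the first r restates that split of the lines. These are descriptions over libraries of 6 lines. In MSTO-211H alone, 8 of the 61 other pathway genes were called higher and 4 lower, beside 5.90% and 7.94% of all genes. Median-of-ratios scaling moved the share of higher genes among all calls in this line from 42.7% to 67.5%. ROR1, a receptor of WNT5A that was singled out after its values were seen, went there from a mean of 68 CP20M in DMSO to 610 in palbociclib (2.97 on the log2 scale, SE 0.15, limma FDR 0.0349). The other sensitive lines had more ROR1 in DMSO. Their means went from 527 to 630.5 CP20M in H2052, from 906 to 803.67 in H2452 and from 437.67 to 408.67 in H28.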
